A study of Mus musculus with 22 samples.

Results

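Genes of cholesterol synthesis and of its control by SREBP and LXR were followed across conventional dendritic cells (cDCs) of mouse spleen and mesenteric lymph node (MLN). The set holds 34 genes, chosen by name, of the 34047 genes of the count table, and all 34 were found there and passed the filter on low counts in every fit. It comprises 5 regulators of SREBP, 7 genes of the mevalonate steps, 3 of the steps from squalene to lanosterol, 9 of the steps from lanosterol to cholesterol, 2 of sterol transport and esterification, 5 of LXR and its targets and 3 of fatty acid synthesis. All cells came from mice of the Tbx21RFP-cre strain aged 6 to 10 weeks and of both sexes, in which a red fluorescent protein (RFP) reports Tbx21, the gene of the transcription factor T-bet. All groups share this strain, and the labels name no treatment. Cells negative for lineage markers, CD64 and Ly6C and positive for CD11c and MHCII were sorted into cDC1s, and into RFP+ (T-bet+) and RFP- (T-bet-) cDC2s. Bulk RNA-seq covered 16 libraries, with 3 of each subset from spleen, 3 of MLN cDC1s and 2 of each MLN cDC2 subset, and ATAC-seq covered 6 libraries of 50000 cells each, with 2 of each subset from spleen. Each RNA library pooled cells of a pair of mice, so the p-values measure the spread between pools.

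Cells make cholesterol from acetyl-CoA by way of mevalonate, squalene and lanosterol. When sterols in the endoplasmic reticulum fall, SCAP escorts the SREBP precursors to the Golgi for cleavage, and the released factors switch on genes of sterol and fatty acid synthesis, while INSIG proteins hold the SCAP complex back when sterols are plentiful. Oxysterols bind the LXR receptors, which induce the sterol exporters ABCA1 and ABCG1 and, through Srebf1, genes of fatty acid synthesis.

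Gene counts summed to 20993220 to 27317480 per spleen library and to 22733964 to 29006549 per MLN library. Levels are given as CPM, counts per 1000000 counted reads after TMM normalization over the 16 libraries. The subset labels were held against marker genes. The summed level of the cDC1 markers Xcr1, Clec9a and Itgae was 732 to 1900 CPM in cDC1 libraries and at most 59.6 CPM in cDC2 libraries. Tbx21 itself was at 17.2 to 24.9 CPM in spleen T-bet+ cDC2s but at only 7.19 and 2.93 CPM in the MLN T-bet+ libraries, and the T-bet- markers Clec12a and Cx3cr1 followed the labels within cDC2s. Within MLN, cDC1 replicate 1 and T-bet+ cDC2 replicate 1 stood apart. They held 2560 and 2170 CPM of Ccr7, the receptor that guides dendritic cells into lymph nodes, against 7710 to 9740 CPM in the other 5 MLN libraries, and they also held the least Fscn1, a cytoskeletal marker of migratory dendritic cells, at 213 and 95.6 CPM. Spleen libraries also differed in how their gene levels followed transcript GC content. Spleen cDC1 replicates 1 and 2, T-bet- replicate 3 and all 3 T-bet+ libraries correlated positively (rho of 0.21 to 0.34), and the other spleen libraries and all MLN libraries lay between -0.4 and 0.04. In these bulk libraries fewer cells of a type and less RNA per cell cannot be told apart.

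The promoters of the 3 synthesis genes that differed between tissues in every subset (Hmgcs1, Idi1 and Tm7sf2) are shown first, since the tissue difference in synthesis genes is the widest pattern in the set. They are RefSeq entries of build GRCm38.p6, written 5′ to 3′ on the strand of the gene, from 250 bases before to 50 bases after the start. Capitals mark the sterol regulatory element TCACNCCAC, which SREBP binds, and the NF-Y box CCAAT, the site of a factor that works beside SREBP, in either orientation.
Hmgcs1 chr13:119690101-119690400 (+): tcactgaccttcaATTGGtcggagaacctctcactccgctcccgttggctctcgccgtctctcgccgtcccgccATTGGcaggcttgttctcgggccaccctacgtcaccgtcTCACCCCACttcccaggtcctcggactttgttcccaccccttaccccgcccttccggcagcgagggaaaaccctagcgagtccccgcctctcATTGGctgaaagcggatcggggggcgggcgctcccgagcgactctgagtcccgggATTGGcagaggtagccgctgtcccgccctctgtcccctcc
Idi1 chr13:8885356-8885655 (+): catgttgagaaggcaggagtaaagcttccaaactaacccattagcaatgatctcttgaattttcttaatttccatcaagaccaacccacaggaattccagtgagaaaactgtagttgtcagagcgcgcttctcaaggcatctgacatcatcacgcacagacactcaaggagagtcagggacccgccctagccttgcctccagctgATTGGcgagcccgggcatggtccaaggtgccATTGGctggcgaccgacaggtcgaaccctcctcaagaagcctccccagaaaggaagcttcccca
Tm7sf2 chr19:6067801-6068100 (-): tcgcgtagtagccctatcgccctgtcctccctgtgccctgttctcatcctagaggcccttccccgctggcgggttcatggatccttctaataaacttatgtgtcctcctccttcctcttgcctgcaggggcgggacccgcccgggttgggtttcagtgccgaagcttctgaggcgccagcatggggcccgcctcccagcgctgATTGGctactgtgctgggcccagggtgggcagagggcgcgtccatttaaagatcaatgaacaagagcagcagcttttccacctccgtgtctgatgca
The Hmgcs1 promoter holds the sterol element at position -137 from the start, with 4 NF-Y boxes around it, while the Idi1 and Tm7sf2 promoters hold 2 and 1 NF-Y boxes and no exact sterol element.

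RefSeq promoters were matched for 27 of the 34 genes, as 36 entries. NF-Y boxes were in 63.89% of these entries, against 37.4% of all 32851 promoters of that length, and in 22 of the 27 genes. The genes whose promoter entries held none were Abca1, Acat2, Nr1h2, Nr1h3 and Scap. The E-box CACGTG, a palindrome that SREBP can also bind, was in 19.44% of entries against 7.15% of all promoters. The exact sterol element was in 2.78% (Hmgcs1 alone) against 1.24%. The exact LXR element, a direct repeat of AGGTCA with 4 bases between (DR4), was in none, against 0.0152%. An exact repeat this rare cannot show whether these promoters hold LXR sites with other letters. NF-Y and sterol elements do not overlap as letters. These matches describe letters in a window of 300 bases and were not tested.

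At 2 further synthesis loci, Sqle and Fdft1, the promoter windows of the ATAC-seq data are shown, since both genes differed between tissues and both windows were less open in cDC1s. The sequences are from mm10, plus strand, with NF-Y boxes in capitals.
Sqle chr15:59314896-59315045: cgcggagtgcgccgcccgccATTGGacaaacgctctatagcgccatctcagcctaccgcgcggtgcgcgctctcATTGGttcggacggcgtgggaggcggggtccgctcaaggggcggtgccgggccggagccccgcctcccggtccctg
Fdft1 chr14:63177951-63178100: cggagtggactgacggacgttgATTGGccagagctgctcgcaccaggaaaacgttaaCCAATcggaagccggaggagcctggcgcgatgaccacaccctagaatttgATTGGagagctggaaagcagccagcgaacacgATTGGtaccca
The Sqle window holds 2 NF-Y boxes and the Fdft1 window 4, and neither holds an exact sterol element. Windows with large differences between cDC1s and cDC2s lie at Insig2 and Soat1, and another lies at the start of Abca1. They are printed in the same way, with an E-box in capitals in the Abca1 window.
Insig2 chr1:121312440-121312589: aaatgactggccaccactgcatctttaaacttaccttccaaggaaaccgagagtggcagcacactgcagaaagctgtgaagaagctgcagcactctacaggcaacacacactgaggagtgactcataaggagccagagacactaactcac
Soat1 chr1:156468738-156468887: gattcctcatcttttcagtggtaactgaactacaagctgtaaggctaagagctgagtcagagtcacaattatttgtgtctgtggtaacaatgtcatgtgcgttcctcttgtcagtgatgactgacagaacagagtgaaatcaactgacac
Abca1 chr4:53159896-53160045: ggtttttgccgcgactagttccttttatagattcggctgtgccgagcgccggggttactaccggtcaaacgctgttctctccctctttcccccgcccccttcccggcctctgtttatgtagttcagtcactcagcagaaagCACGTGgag
The Insig2 and Soat1 windows hold no exact match of the 4 motifs. Only exact matches are marked in these windows, so sites with other letters are not excluded.

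Per kilobase of exon, the most abundant transcript of the set was Srebf2, the SREBP that chiefly serves sterol synthesis, at 60.6 CPM per kb in spleen cDC1s, 46.6 in spleen T-bet- cDC2s and 77.1 in spleen T-bet+ cDC2s. Nr1h2, which encodes the widely expressed LXRβ, was at 34.9 to 54.4 CPM per kb in the spleen subsets. Abca1 was the least abundant in spleen cDC1s, at 0.0511 CPM per kb, and Tm7sf2, a sterol C14-reductase, stood at 0.35 CPM per kb there, while Lbr, the other C14-reductase, was at 33.8. In spleen, Lbr thus stood above Tm7sf2 on the per-length scale in every subset, at 42.6 against 1.07 CPM per kb in T-bet- cDC2s and 45.1 against 0.607 in T-bet+ cDC2s.

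**Figure D1:**
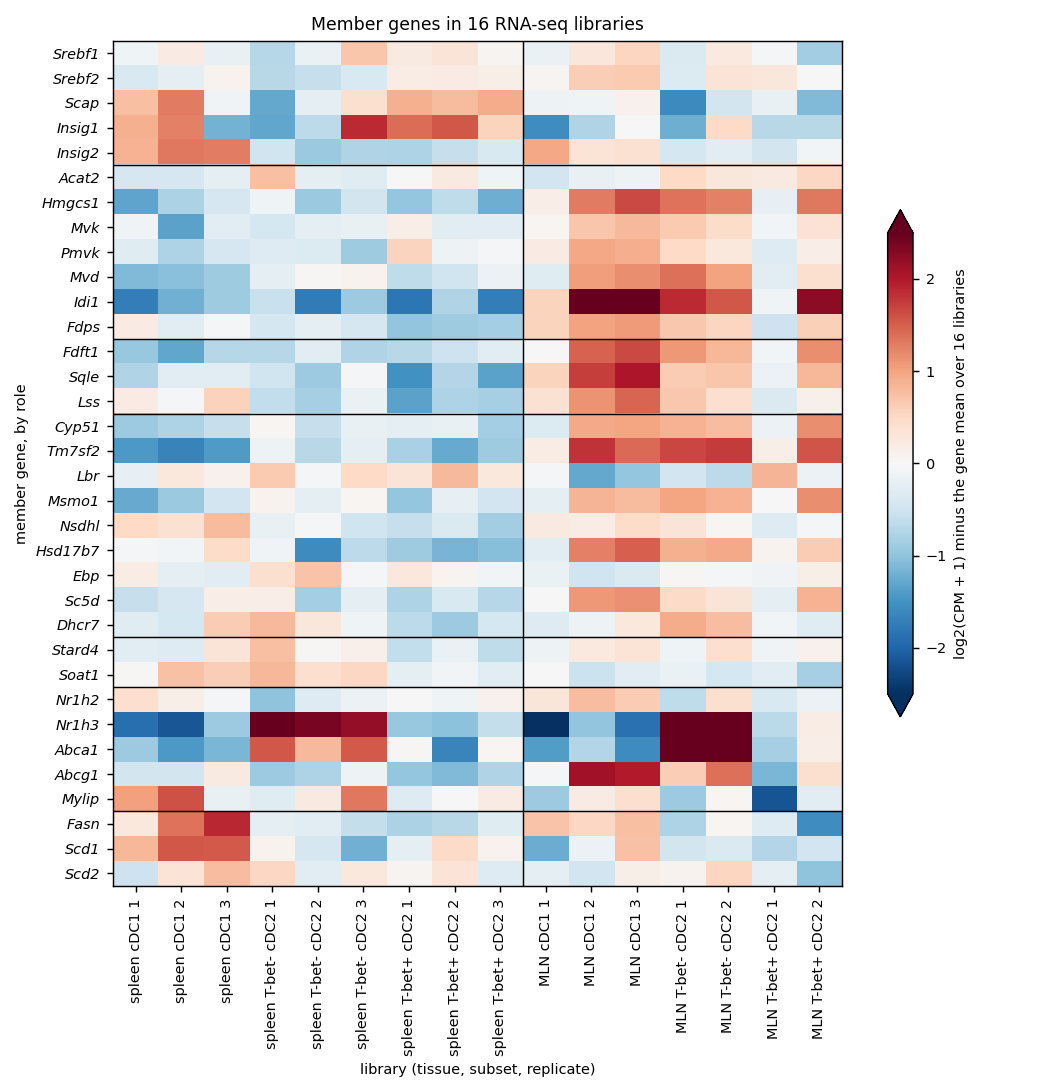
Level of the 34 genes in the 16 RNA libraries (columns), as log2(CPM + 1) minus the mean of the gene over the libraries, with genes in rows by role and the vertical line between spleen and MLN. Colours saturate at the ends of the scale. Most synthesis genes are red in MLN libraries other than cDC1 replicate 1 and T-bet+ replicate 1, and Nr1h3 and Abca1 are red in T-bet- cDC2s of both tissues.

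Comparing MLN with spleen within each subset, several sterol synthesis genes were higher in MLN. Of the 19 synthesis genes, 10 rose in MLN cDC1s, 4 in MLN T-bet+ cDC2s and 4 in MLN T-bet- cDC2s, and none fell (edgeR quasi-likelihood test with Benjamini-Hochberg adjustment over all genes, adjusted p under 0.05). Hmgcs1, Idi1 and Tm7sf2 rose in all 3 subsets. Of all 34 genes, 11 were called in cDC1s, all of them higher, against 11.7% of all genes called in either direction and 7.75% called higher. In T-bet+ cDC2s the 4 called genes compare with 5.09% of all genes in either direction and 3.79% higher, and in T-bet- cDC2s the 4 called genes with 5.95% and 4.36%. The log2 fold change was above 0 for 15 of the 19 synthesis genes in cDC1s, for 16 in the T-bet+ and for 17 in the T-bet- subset, with medians of 1.09, 1.05 and 1.0, where the median over all genes was 0.01, 0 and -0.04.

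**Figure D2:**
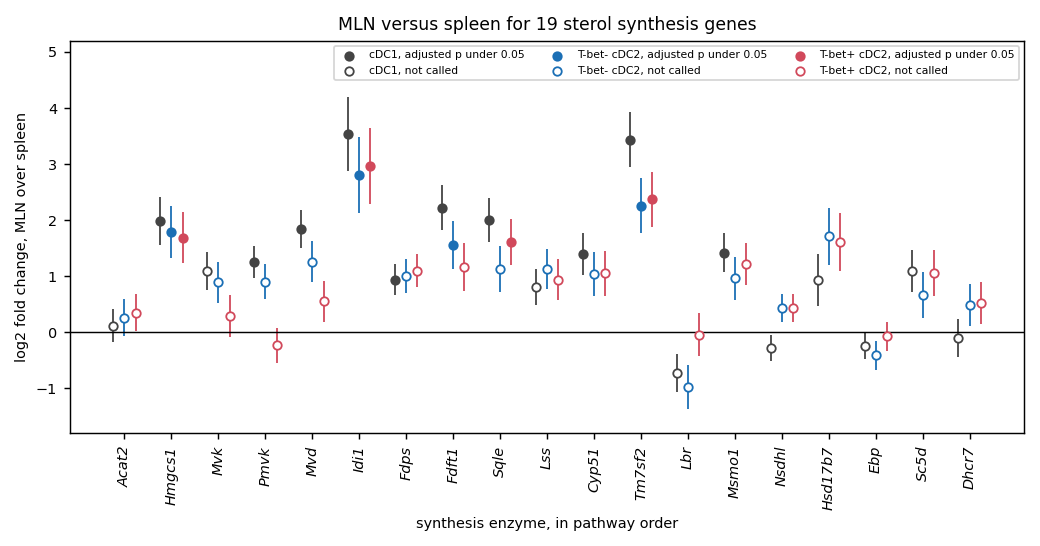
Log2 fold change (points) and standard error (bars) of MLN over spleen for the 19 sterol synthesis genes, in pathway order, for each subset. Filled points passed an adjusted p under 0.05. Idi1 and Tm7sf2 lie furthest above 0 in every subset, at 2.26 to 3.54, and Lbr, Ebp and Acat2 lie near or below 0.

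Among the mevalonate steps, Hmgcs1, the synthase that makes HMG-CoA, was at 35.7, 51.7 and 67.7 CPM in spleen cDC1s and at 102, 225 and 288 CPM in MLN cDC1s. Every MLN library lay above every spleen library, and the lowest MLN value was that of replicate 1. The difference was 1.99 ± 0.43 (log2 fold change ± SE, edgeR adjusted p = 0.011). In T-bet+ cDC2s Hmgcs1 was at 45.8, 57.8 and 38.1 CPM in spleen and 78.2 and 226 CPM in MLN (1.69 ± 0.46, edgeR adjusted p = 0.048), and in T-bet- cDC2s at 84.4, 47.2 and 65.4 CPM in spleen and 235 and 218 CPM in MLN (1.79 ± 0.46, edgeR adjusted p = 0.036). The groups did not overlap in either cDC2 subset.

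Idi1, the isomerase of the activated isoprene units, had the largest fold change of the set between tissues in each subset. It was at 6.6, 10 and 12.7 CPM in spleen cDC1s and 36.3, 151 and 154 CPM in MLN cDC1s, a difference of 3.54 ± 0.66 (edgeR adjusted p = 0.0061). In T-bet+ cDC2s it was at 6.26, 14.1 and 6.69 CPM in spleen and 22.5 and 119 CPM in MLN (2.97 ± 0.68, edgeR adjusted p = 0.027). In T-bet- cDC2s it was at 16.3, 6.53 and 12.5 CPM in spleen and 90.9 and 73.1 CPM in MLN (2.8 ± 0.68, edgeR adjusted p = 0.028). In each of the 3 subsets all MLN libraries lay above all spleen libraries. The 2 lowest MLN values were those of cDC1 replicate 1 and T-bet+ replicate 1.

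The other mevalonate genes passed the test between tissues in cDC1s only or not at all, which is not a test that the subsets differ. Mvd, which makes isopentenyl diphosphate, was at 15.7, 16.3 and 18.4 CPM in spleen cDC1s and 28.2, 73.5 and 79 CPM in MLN cDC1s (1.84 ± 0.34, edgeR adjusted p = 0.0056). In cDC2s the same comparison of Mvd gave 1.26 ± 0.36 (T-bet-, edgeR adjusted p = 0.055) and 0.55 ± 0.36 (T-bet+, adjusted p = 0.35). Pmvk, a mevalonate pathway kinase, rose by 1.25 ± 0.28 (edgeR adjusted p = 0.015) and Fdps, which makes farnesyl diphosphate, by 0.94 ± 0.27 (edgeR adjusted p = 0.041) in cDC1s. Fdps was at 30.6, 21.5 and 25.9 CPM in spleen cDC1s and 39.2, 53.9 and 56.7 CPM in MLN cDC1s, with no overlap. In both cDC2 subsets its fold change was as large or larger, at 1.1 ± 0.3 and 1.0 ± 0.3, with adjusted p of 0.05 and 0.064. Mvk, the mevalonate kinase, was at 1.09 ± 0.34 in cDC1s (adjusted p = 0.051), and Acat2, the cytosolic thiolase that starts the pathway, was between 0.12 and 0.35 in the 3 subsets.

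Of the steps from squalene to lanosterol, Fdft1, the squalene synthase, was at 24, 18.4 and 28.4 CPM in spleen cDC1s and 47.4, 133 and 150 CPM in MLN cDC1s (2.22 ± 0.4, edgeR adjusted p = 0.0052). In T-bet- cDC2s it was at 28.2, 38.8 and 27.6 CPM in spleen and 100 and 84.7 CPM in MLN (1.55 ± 0.43, edgeR adjusted p = 0.047). The 2 groups did not overlap in either subset, and in T-bet+ cDC2s, where the value was 1.17 ± 0.43, the test was not passed (adjusted p = 0.11). Sqle, the squalene epoxidase, was at 31.1, 43.2 and 44.1 CPM in spleen cDC1s and 78.6, 177 and 218 CPM in MLN cDC1s (2.0 ± 0.39, edgeR adjusted p = 0.0069). In T-bet+ cDC2s Sqle was at 17.9, 31.5 and 20.4 CPM in spleen and 47.9 and 94.6 CPM in MLN (1.61 ± 0.41, edgeR adjusted p = 0.041). Lss, the lanosterol synthase, had values of 0.81 to 1.13 in the 3 subsets and did not pass in any.

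Of the 9 genes from lanosterol to cholesterol, Tm7sf2, Cyp51 and Msmo1 rose in MLN cDC1s. Tm7sf2 was at no more than 1.69 CPM in spleen cDC1s (41, 31 and 35 counts) and 7.26, 24.4 and 18.2 CPM in MLN cDC1s (3.43 ± 0.49, edgeR adjusted p = 0.0014). It also rose in T-bet+ cDC2s, from 3.09, 2.03 and 2.91 to 7.04 and 20.6 CPM (2.37 ± 0.49, edgeR adjusted p = 0.016), and in T-bet- cDC2s, from 5.64, 3.44 and 5.06 to 22 and 23.1 CPM (2.26 ± 0.49, edgeR adjusted p = 0.016). No spleen library reached the lowest MLN library of its subset. Cyp51, the lanosterol demethylase, differed by 1.4 ± 0.37 (edgeR adjusted p = 0.028) and Msmo1, the C4-methylsterol oxidase, by 1.42 ± 0.35 (edgeR adjusted p = 0.021) in cDC1s. In cDC2s neither passed, at 1.05 ± 0.4 (T-bet+) and 1.04 ± 0.4 (T-bet-) for Cyp51, with 0.96 ± 0.38 for Msmo1 in T-bet- cDC2s, and the MLN libraries lay above the spleen libraries in each. Cyp51 overlaps Akap9 on the opposite strand and Fdft1 overlaps Ctsb, and since it is not stated whether the counting used the strand, such pairs can share reads. Hsd17b7, a ketosteroid reductase, and Sc5d, the C5-desaturase, lay between 0.67 and 1.71 in the 3 subsets without passing. Nsdhl, Ebp and Dhcr7 also did not pass, and Lbr had values below 0 in each subset, at -0.73 ± 0.34, -0.04 ± 0.38 and -0.98 ± 0.39 for cDC1s, T-bet+ and T-bet- cDC2s.

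**Figure D3:**
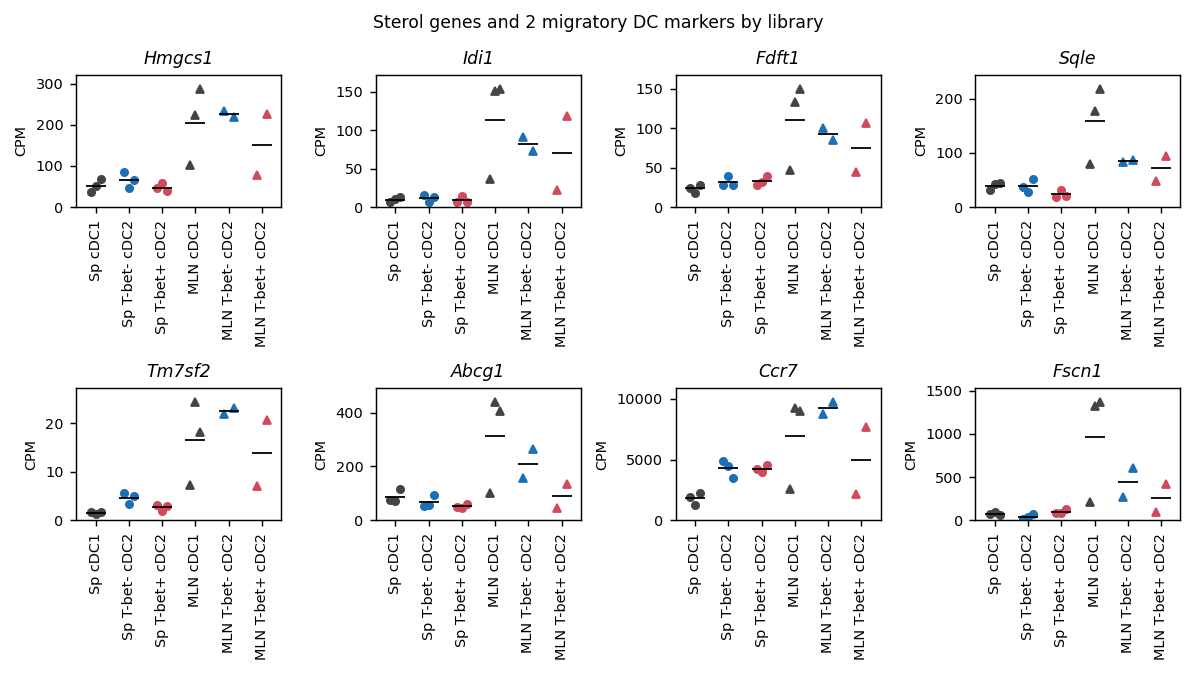
CPM of 5 synthesis genes, of the sterol exporter Abcg1 and of the migratory markers Ccr7 and Fscn1 in each library (circles, spleen; triangles, MLN; horizontal lines, group means). In MLN the lowest point of cDC1s and of T-bet+ cDC2s is replicate 1 in all 8 panels, for example 36.3 and 22.5 CPM for Idi1 and 2560 and 2170 CPM for Ccr7.

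The 2 MLN libraries with the lowest Ccr7 and Fscn1 also held the least Idi1, but not the least Lbr, which was at 151 CPM in cDC1 replicate 1 against 62.2 and 78.4 CPM in the other MLN cDC1 libraries. Leaving out these 2 libraries, an alternative chosen after the data were seen, raised the number of genes called between tissues to 18 of 34 for cDC1s, 11 for T-bet+ cDC2s and 12 for T-bet- cDC2s. With the class of library by GC content as a term, also chosen after the data were seen, the numbers were 5, 0 and 2. All 3 spleen T-bet+ libraries were of the class above a rho of 0.1 and all MLN libraries of the other, so that for T-bet+ cDC2s class and tissue cannot be told apart in full. Leaving out MLN cDC1 replicate 1 gave 19 genes in cDC1s, and leaving out cDC1 replicate 2 of MLN or of spleen gave 6 and 5. For the cDC2 subsets, leaving out MLN T-bet+ replicate 2, any spleen T-bet+ library, either MLN T-bet- library or spleen T-bet- replicate 2 gave 0. Ccr7 itself was higher in MLN than in spleen in cDC1s by 1.95 ± 0.47 (edgeR adjusted p = 0.019), and Fscn1 by 3.63 ± 0.71 (edgeR adjusted p = 0.0074). In T-bet- cDC2s Ccr7 was at 8790 and 9740 CPM in MLN against 3480 to 4850 CPM in spleen. In T-bet+ cDC2s it was at 2170 and 7710 CPM in MLN against 4010 to 4540 CPM in spleen. MLN T-bet+ replicate 1 thus lay below every spleen T-bet+ library in Ccr7, but above each of them in Hmgcs1, Idi1, Fdft1, Sqle and Tm7sf2. The part of migratory cells in the tissue difference was not tested.

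Subsets were also compared within spleen. Of the 34 genes, 2 differed between T-bet+ and T-bet- cDC2s, against 5.38% of all genes, 5 between T-bet+ cDC2s and cDC1s, against 18.2%, and 7 between T-bet- cDC2s and cDC1s, against 15.9%. Among the synthesis genes, 3 were lower in T-bet+ cDC2s than in cDC1s, 2 were higher in T-bet- cDC2s than in cDC1s, and 0 passed between the cDC2 subsets. The fold change of T-bet+ from T-bet- cDC2s was nevertheless below 0 for 15 of the 19 in spleen, with a median of -0.38 against -0.01 over all genes, and for 17 of the 19 in MLN, with a median of -0.42 against -0.02. These comparisons share libraries, so their counts are given side by side.

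Lss was at 18.3, 15.3 and 24.2 CPM in spleen cDC1s and 5.63, 8.89 and 8.47 CPM in spleen T-bet+ cDC2s (-1.33 ± 0.31, edgeR adjusted p = 0.016). Nsdhl, a C4-demethylation dehydrogenase, was at 40, 36.9 and 49.4 CPM in spleen cDC1s and 18.7, 21.7 and 14.9 CPM in T-bet+ cDC2s (-1.19 ± 0.25, edgeR adjusted p = 0.0092). For both, the spleen T-bet- libraries also lay below every cDC1 library, at 8.53 to 13.9 CPM for Lss and 19.7 to 27.8 CPM for Nsdhl. Fdps was at 12.9, 13.8 and 14.2 CPM in T-bet+ cDC2s and lower than in cDC1s by -0.93 ± 0.23 (edgeR adjusted p = 0.018), a call kept in 12 of 18 alternatives and lost with the replicate block (-0.93 ± 0.27, edgeR adjusted p = 0.065). The Nsdhl call was kept in 18 of 18.

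Mvd and Tm7sf2 went the other way in T-bet- cDC2s. Mvd was at 29.6, 35.6 and 37.3 CPM there, above the 15.7 to 18.4 CPM of spleen cDC1s (1.02 ± 0.23, edgeR adjusted p = 0.015, kept in 13 of 18 alternatives). Tm7sf2, at 3.44 to 5.64 CPM against at most 1.69 CPM, was higher by 1.61 ± 0.37 (edgeR adjusted p = 0.016, kept in 14 of 18). In the main edgeR fit of MLN, none of the synthesis genes passed between any subsets. Over all 34 genes, 0 passed between MLN T-bet+ and T-bet- cDC2s, where 0% of all genes were called, 0 between T-bet+ cDC2s and cDC1s, against 6.22% of all genes, and 2 between T-bet- cDC2s and cDC1s, against 5.79%. For the comparisons with a count of 0, 5 and 11 of the 34 genes had an unadjusted p under 0.05, and DESeq2 called 2 and 4. Of all 15298 genes tested, 1444 and 3392 had an unadjusted p under 0.05 in the same edgeR fits. With the number in the library names as a block, the 3 counts were 1, 7 and 6. For DESeq2 and for this block, calls over all genes were not counted.

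A test of whether subset differences themselves differed between tissues called none of the 34 genes in any of the 3 subset pairs, where 0.00595%, 0.0893% and 0.0357% of all genes were called. At an unadjusted p under 0.05 the counts were 1, 3 and 1, against 847, 1424 and 991 of all 16795 genes, and DESeq2 called 0 in each. The smallest p belonged to Pmvk, whose difference between T-bet+ cDC2s and cDC1s was 0.67 ± 0.28 in spleen and -0.77 ± 0.3 in MLN (unadjusted p of the interaction in the edgeR model 0.0038, adjusted p = 0.26).

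Of the 5 regulators of SREBP, Insig2 separated cDC1s from cDC2s in spleen, and Srebf2 differed between the cDC2 subsets. Insig2, which retains the SCAP complex in the endoplasmic reticulum, was at 48.2, 66.9 and 64.6 CPM in spleen cDC1s, at 18.2, 13.3 and 15 CPM in T-bet- cDC2s and at 14.9, 17.2 and 19.9 CPM in T-bet+ cDC2s. The cDC1 libraries lay far above both cDC2 subsets, which overlapped. Insig2 was lower by -1.95 ± 0.25 in T-bet- cDC2s (edgeR adjusted p = 0.00061) and by -1.79 ± 0.25 in T-bet+ cDC2s (edgeR adjusted p = 0.00088), and both calls were kept in 18 of 18 alternatives. In MLN it was at 52, 33.5 and 34.1 CPM in cDC1s and 18.8 to 24.7 CPM in the cDC2 libraries, without overlap, and the differences of -0.93 ± 0.31 and -0.85 ± 0.31 did not pass (edgeR adjusted p of 0.14 and 0.16).

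Srebf2 was at 557, 562 and 542 CPM in spleen T-bet+ cDC2s, at 302, 326 and 375 CPM in T-bet- cDC2s and at 376, 416 and 515 CPM in cDC1s. The 3 groups did not overlap, with T-bet+ cDC2s highest. T-bet+ cDC2s exceeded T-bet- cDC2s by 0.73 ± 0.18 (edgeR adjusted p = 0.044), a call kept in only 3 of 18 alternatives, with adjusted p from 0.036 to 0.16 and the value from 0.64 to 0.77. In MLN the T-bet+ libraries, at 592 and 484 CPM, lay between the T-bet- libraries, at 382 and 616 CPM, and MLN cDC1s were at 513, 748 and 769 CPM. Srebf1, the SREBP of fatty acid synthesis, was at 50 to 65.7 CPM in spleen cDC1s, 34.2 to 93 CPM in T-bet- and 60 to 71.6 CPM in T-bet+ cDC2s and passed in no comparison.

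Insig1, a sterol-responsive partner of Insig2, varied widely within spleen subsets. Insig1 was at 24.9, 32.3 and 5.17 CPM in cDC1s, 4.67, 7.92 and 49.6 CPM in T-bet- cDC2s and 35.5, 39.9 and 19.6 CPM in T-bet+ cDC2s. The 3 spleen libraries below 10 CPM are the 3 that were not of the class with a positive correlation with GC content. In MLN Insig1 lay between 3.77 and 18.7 CPM. Scap was at 67.8, 99.3 and 37.3 CPM in spleen cDC1s, 15.8, 34.1 and 52.9 CPM in T-bet- cDC2s and 74, 69.8 and 77 CPM in T-bet+ cDC2s, with the lowest library of cDC1s and the highest of T-bet- cDC2s again split by that class, and 12.5 to 42.7 CPM in MLN. In spleen every T-bet+ library lay above every T-bet- library in Scap (1.1 ± 0.45, edgeR adjusted p = 0.22). Neither gene passed in any comparison.

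**Figure D4:**
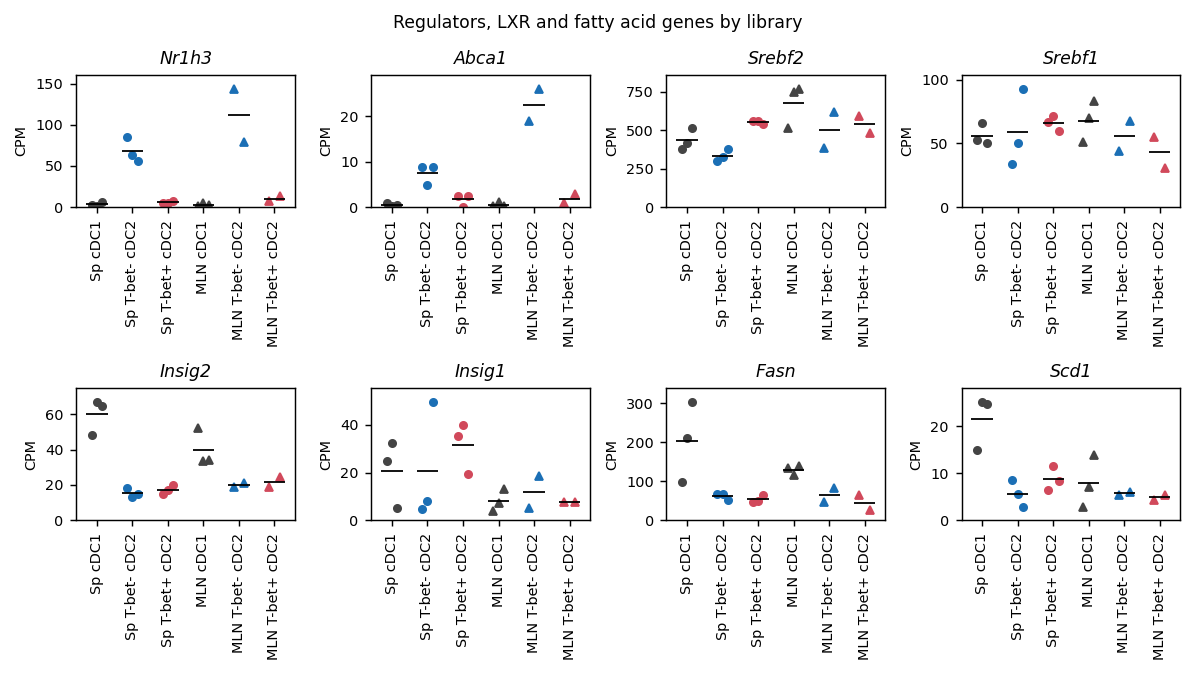
CPM of LXR, SREBP, INSIG and fatty acid genes in each library (circles, spleen; triangles, MLN; horizontal lines, group means). Nr1h3 and Abca1 are high in T-bet- cDC2s of both tissues, Insig2, Fasn and Scd1 have their highest means in spleen cDC1s, and Insig1 splits within spleen cDC1s and T-bet- cDC2s.

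Nr1h3, which encodes LXRα, the LXR of macrophages and liver, marked T-bet- cDC2s in both tissues. It was at 84.9, 63.3 and 55.8 CPM in spleen T-bet- cDC2s, at 5.43, 5.14 and 7.27 CPM in T-bet+ cDC2s and at 2.35, 1.81 and 5.61 CPM in cDC1s. The lowest T-bet- library was far above every other spleen library. T-bet+ cDC2s were lower by -3.51 ± 0.44 (edgeR adjusted p = 0.0021), and T-bet- cDC2s exceeded cDC1s by 4.39 ± 0.46 (edgeR adjusted p = 0.00019), and both calls were kept in 18 of 18 alternatives. In MLN it was at 144 and 79.3 CPM in T-bet- cDC2s, 6.85 and 13.1 CPM in T-bet+ cDC2s and 0.893, 5.29 and 2.4 CPM in cDC1s. MLN T-bet- cDC2s exceeded cDC1s by 5.38 ± 0.69 (edgeR adjusted p = 0.0053), a call lost without T-bet- replicate 1 (adjusted p = 0.052), while the difference of -3.53 ± 0.75 between MLN cDC2 subsets did not pass (edgeR adjusted p = 0.25).

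Abca1, the exporter of cholesterol to lipid-poor apolipoproteins, was also highest in T-bet- cDC2s. It was at 8.91, 4.93 and 8.8 CPM in spleen T-bet- cDC2s, 2.46, 0.075 and 2.49 CPM in T-bet+ cDC2s and 0.81, 0.247 and 0.532 CPM in cDC1s, which are 96 to 233, 2 to 62 and 6 to 20 counts. T-bet- cDC2s exceeded cDC1s by 3.82 ± 0.97 (edgeR adjusted p = 0.026, kept in 13 of 17 alternatives), and the difference of -2.17 ± 0.89 between T-bet+ and T-bet- cDC2s did not pass (edgeR adjusted p = 0.23). In MLN the T-bet- libraries held 19 and 26.1 CPM, the T-bet+ libraries 0.903 and 2.81 CPM and the cDC1 libraries 0.284, 1.04 and 0.146 CPM. Here T-bet- cDC2s exceeded cDC1s by 5.6 ± 0.8 (edgeR adjusted p = 0.0079), a call lost without either T-bet- library, which leaves that group with a single library. The 2 cDC2 subsets did not overlap in either tissue.

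Several markers of macrophages were also highest in T-bet- cDC2s. The 6 markers (Adgre1, Mertk, Fcgr1, C1qa, Vcam1 and Ly6c2) summed to 627 to 945 CPM in spleen T-bet- cDC2s, 398 to 468 CPM in T-bet+ cDC2s and 88.3 to 174 CPM in cDC1s, and to 678 to 1040, 312 to 386 and 81.9 to 205 CPM in MLN. None was at 0 in all libraries of a group. C1qa, a complement gene of macrophages, was at 206, 202 and 136 CPM in spleen T-bet- cDC2s against 11.3 to 18.6 CPM in T-bet+ cDC2s, and at 550 and 296 CPM in MLN T-bet- cDC2s. Fcgr1, which encodes the CD64 used to exclude cells in the sort, was at 5.36 to 7.92 CPM in spleen T-bet- cDC2s and 0.413 to 0.832 CPM in T-bet+ cDC2s. Of the 6, 4 were lower in spleen T-bet+ cDC2s than in their T-bet- counterparts. The macrophage marker Adgre1 did not follow this, at 552, 336 and 387 CPM in T-bet- against 417, 357 and 347 CPM in T-bet+ cDC2s of spleen, and at 87.6 and 90.4 CPM in T-bet- against 362 and 191 CPM in T-bet+ cDC2s of MLN. The monocyte marker Ly6c2 was at 4.05, 1.95 and 2.0 CPM in T-bet- cDC2s and 5.14, 3.5 and 5.61 CPM in cDC1s of spleen. Their part in the Nr1h3 and Abca1 values was not tested.

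Of the other genes of this group, Abcg1, the exporter to high-density lipoprotein, was at 74, 73.2 and 118 CPM in spleen cDC1s and 100, 439 and 405 CPM in MLN cDC1s. The groups overlapped through MLN replicate 1, and the difference was 1.83 ± 0.5 (edgeR adjusted p = 0.032). In MLN T-bet- cDC2s, at 157 and 264 CPM, it lay above the 53.9 to 93.1 CPM of spleen without passing (1.62 ± 0.54, edgeR adjusted p = 0.089). Nr1h2 was at 214, 178 and 155 CPM in spleen cDC1s, 79, 128 and 144 CPM in T-bet- and 162, 149 and 172 CPM in T-bet+ cDC2s, at 199, 274 and 251 CPM in MLN cDC1s, 103 and 211 CPM in MLN T-bet- and 123 and 145 CPM in MLN T-bet+ cDC2s. Mylip, an LXR-induced ubiquitin ligase, ranged from 16.7 to 65.4 CPM in spleen and from 3.91 to 28.4 CPM in MLN, and neither Nr1h2 nor Mylip passed in any comparison.

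In spleen, the fatty acid genes Fasn and Scd1 were highest in cDC1s. Fasn, the fatty acid synthase, was at 97.8, 210 and 303 CPM there, at 68.7, 67.3 and 53.1 CPM in T-bet- cDC2s and at 46.2, 49.6 and 65.5 CPM in T-bet+ cDC2s. The lowest cDC1 library was above every cDC2 library, and both cDC2 subsets were lower, by -1.69 ± 0.37 (T-bet-, edgeR adjusted p = 0.013) and -1.92 ± 0.37 (T-bet+, edgeR adjusted p = 0.0062). Scd1, which makes monounsaturated fatty acids, was at 14.9, 25.1 and 24.7 CPM in cDC1s, 8.53, 5.65 and 2.87 CPM in T-bet- cDC2s and 6.5, 11.5 and 8.43 CPM in T-bet+ cDC2s. It was lower in T-bet- cDC2s by -1.92 ± 0.43 (edgeR adjusted p = 0.014), while the value for T-bet+ cDC2s, -1.29 ± 0.42, did not pass (edgeR adjusted p = 0.064). In MLN, Fasn was at 134, 116 and 138 CPM in cDC1s and 27 to 83.8 CPM in cDC2s, and Scd1 at 2.76, 7.07 and 13.8 CPM in cDC1s and 4.4 to 5.97 CPM in cDC2s, with no call for either. Scd2, a related desaturase, lay between 38.3 and 132 CPM over all libraries.

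Over all comparisons, 11 of the 34 genes passed in a comparison of subsets within a tissue, 11 passed in a comparison of tissues and 15 passed in neither. The share of all genes passing at least once in the same comparisons was not counted, so these numbers only list the members. These 15 were Acat2, Dhcr7, Ebp, Hsd17b7, Insig1, Lbr, Mvk, Mylip, Nr1h2, Sc5d, Scap, Scd2, Soat1, Srebf1 and Stard4. Soat1, which esterifies cholesterol for storage, was at 192, 315 and 290 CPM in spleen cDC1s, 336, 253 and 270 CPM in T-bet- cDC2s and 161, 179 and 154 CPM in T-bet+ cDC2s. T-bet+ cDC2s lay below both other subsets, by -0.79 ± 0.22 and -0.69 ± 0.22 (edgeR adjusted p of 0.076 and 0.062). Soat1 was also lower in MLN than in spleen cDC1s, without overlap, by -0.76 ± 0.24 (edgeR adjusted p = 0.051). Dhcr7, the last reductase of the pathway, had a difference of T-bet+ from T-bet- cDC2s of -1.12 ± 0.38 in spleen and -1.13 ± 0.31 in MLN, without overlap in either tissue and without passing (edgeR adjusted p of 0.15 and 0.34). Stard4, a cytosolic sterol carrier, lay between 9.72 and 27.2 CPM over all libraries.

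A further 20 genes of the same pathways, listed by name, were examined beside the 34. Spleen T-bet+ cDC2s were lower than T-bet- cDC2s in 3 of the 20, against 5.38% of all genes in either direction: the LXR partner Rxra (-2.07 ± 0.32, edgeR adjusted p = 0.0068), the lysosomal sterol carrier Npc2 (-1.66 ± 0.22, edgeR adjusted p = 0.0025) and the phospholipid transfer protein Pltp (-1.41 ± 0.28, edgeR adjusted p = 0.02). Rxra was at 12.6, 9.71 and 11.3 CPM in T-bet- and 3.72, 2.55 and 1.7 CPM in T-bet+ cDC2s. Pltp was nearly absent from cDC1s, at 0.329 to 0.725 CPM in spleen and 0.801 to 2.43 CPM in MLN, against 206 to 369 CPM in spleen and 263 and 306 CPM in MLN T-bet- cDC2s. It was higher in both cDC2 subsets than in cDC1s in both tissues. Of the 20, 5 passed between T-bet+ cDC2s and cDC1s of spleen, against 18.2%, and 2 between T-bet- cDC2s and cDC1s, against 15.9%. Against spleen cDC1s, T-bet+ cDC2s were also lower in Npc2, Rxra, the desaturase Fads1 (-2.43 ± 0.6, edgeR adjusted p = 0.02) and the lysosomal lipase Lipa (-1.09 ± 0.26, edgeR adjusted p = 0.017), with adjusted p of 0.052 and 0.058 for the last pair with the replicate block, while T-bet- cDC2s were higher in Stard3 (0.73 ± 0.19, edgeR adjusted p = 0.028), and Npc2 was lower in MLN T-bet+ cDC2s than in MLN cDC1s (-1.93 ± 0.34, edgeR adjusted p = 0.017). Between MLN and spleen cDC1s 2 of the 20 passed, against 11.7% of all genes. They were Fads2 (1.36 ± 0.42, edgeR adjusted p = 0.048) and Lipa (-1.06 ± 0.3, edgeR adjusted p = 0.037). Fads2 was named after its values were seen. In the cDC2 subsets 0 passed, against 5.09% (T-bet+) and 5.95% (T-bet-) of all genes. At an unadjusted p under 0.05 in the edgeR model there were 4 in each, against 4465 (T-bet+) and 4108 (T-bet-) of 16795 genes. The SREBP proteases Mbtps1 and Mbtps2 passed in no comparison.

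Chromatin at the same loci was measured by ATAC-seq in spleen only. Reads had been counted in windows of 150 bases around peak summits, 7270164 to 10081555 reads per library, and each of the 177956 windows was joined to the closest gene within 50000 bases. This gave 198 windows at 28 of the 34 loci, of which 106 reached within 2000 bases of an annotated start, 34 were intronic, 13 exonic and 45 intergenic, and 188 were tested. Of these, 13 windows differed between T-bet+ and T-bet- cDC2s, against 6.28% of all windows tested, 47 between T-bet+ cDC2s and cDC1s, against 23.0%, and 39 between T-bet- cDC2s and cDC1s, against 17.9% (edgeR quasi-likelihood test, adjusted p under 0.01 and absolute log2 fold change over 0.5). Of the 13, 7 were at Abca1 and 3 at Abcg1, and the others were at Hmgcs1, Scap and Srebf2. Abca1 and Abcg1 are also the loci with the most windows, 22 and 20 of the 198.

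**Figure D5:**
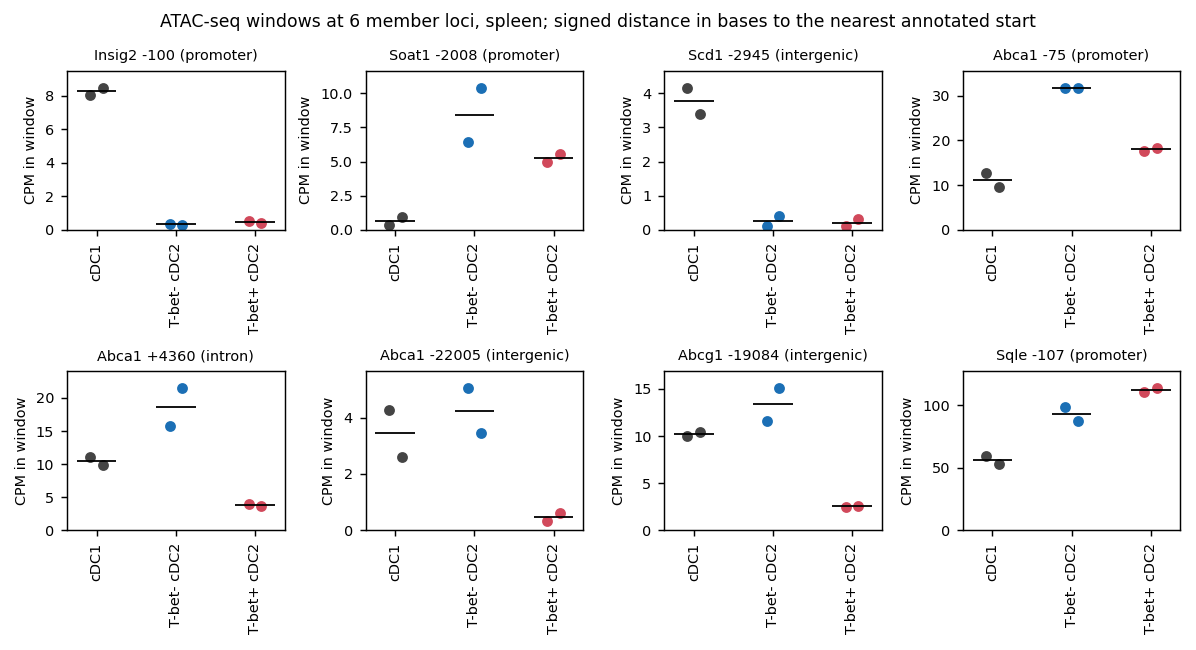
ATAC-seq CPM of 8 windows at 6 loci in each spleen library (points; 2 libraries per subset; horizontal lines, group means), titled by gene, signed distance in bases to the nearest annotated start and position class. Insig2 and Scd1 windows are high in cDC1s, the Soat1 window is low there, and the Abca1 windows are highest in T-bet- cDC2s.

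At Abca1 the window at the start printed above was at 31.8 and 31.8 CPM in T-bet- cDC2s, 17.7 and 18.4 CPM in T-bet+ cDC2s and 12.7 and 9.66 CPM in cDC1s. T-bet- cDC2s were highest here and in the RNA, while cDC1s and T-bet+ cDC2s overlapped in the RNA. T-bet- cDC2s exceeded cDC1s by 1.5 ± 0.2 (edgeR adjusted p = 1.2e-08) and T-bet+ cDC2s lay below T-bet- cDC2s by -0.81 ± 0.19 (edgeR adjusted p = 0.0018). An intronic window at chr4:53155461-53155610 was at 15.8 and 21.5 CPM in T-bet- cDC2s, 11 and 9.79 CPM in cDC1s and 4.02 and 3.66 CPM in T-bet+ cDC2s (-2.28 ± 0.26 between the cDC2 subsets, edgeR adjusted p = 5.1e-10). An upstream window at chr4:53181826-53181975 held 3 and 6 reads in T-bet+ cDC2s against 41 and 34 in T-bet- cDC2s and 36 and 20 in cDC1s (-3.1 ± 0.5 between the cDC2 subsets, edgeR adjusted p = 4.4e-06). In these last windows T-bet+ cDC2s, and not cDC1s, were lowest. An upstream window at chr4:53180610-53180759 was lower in T-bet- cDC2s than in cDC1s, opposite to the RNA, at 7.48 and 8.36 CPM in cDC1s and 3.82 and 2.63 CPM in T-bet- cDC2s (-1.3 ± 0.33, edgeR adjusted p = 0.0016).

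At Abcg1, a window upstream of the gene (chr17:31038517-31038666) was at 2.5 and 2.61 CPM in T-bet+ cDC2s against 11.6 and 15.1 CPM in T-bet- cDC2s and 9.98 and 10.4 CPM in cDC1s (-2.38 ± 0.29 between the cDC2 subsets, edgeR adjusted p = 3.7e-09). A pair of exonic windows went the other way, one of them (chr17:31082794-31082943) at 21.4 and 10.5 CPM in T-bet+ cDC2s and 4.68 and 7.39 CPM in T-bet- cDC2s (1.38 ± 0.27, edgeR adjusted p = 0.00014). The window at the start of Abcg1, at 11.2 to 14.5 CPM, passed between no subsets. At Nr1h3 none of the 9 windows passed between the cDC2 subsets, in contrast to its RNA, and the window nearest its start with the most reads was at 11 and 11.8 CPM in T-bet-, 16.1 and 12.2 CPM in T-bet+ cDC2s and 10.5 and 8.88 CPM in cDC1s, also as close to another gene. A window at chr2:91196880-91197029, as close to another gene as to Nr1h3, was at 14.5 and 20.7 CPM in T-bet- cDC2s against 5.58 and 6.92 CPM in cDC1s (1.5 ± 0.25, edgeR adjusted p = 2.4e-06). It was not particular to T-bet- cDC2s, with 122 and 87 reads in T-bet+ cDC2s against 47 and 53 in cDC1s. Of the 9 Nr1h3 windows, 3 passed between T-bet+ cDC2s and cDC1s and 1 between T-bet- cDC2s and cDC1s.

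At Insig2 all 4 windows were more open in cDC1s than in T-bet+ cDC2s. The printed window lies at -100 bases from an annotated start inside the gene and was at 8.08 and 8.49 CPM in cDC1s (68 and 65 reads) against 3 and 3 reads in T-bet- cDC2s and 5 and 4 reads in T-bet+ cDC2s. The fitted differences were -4.57 ± 0.49 and -4.07 ± 0.46 (edgeR adjusted p of 1e-11 and 2.4e-11), among the largest at the member loci. A window at another annotated start (chr1:121307255-121307404) differed less, at 9.62 and 13.3 CPM in cDC1s, 5.92 and 5.37 CPM in T-bet- and 4.13 and 3.76 CPM in T-bet+ cDC2s. An intergenic window upstream of Scd1 (chr19:44410750-44410899) held 35 and 26 reads in cDC1s, 1 and 4 in T-bet- cDC2s and 1 and 3 in T-bet+ cDC2s. At both loci the RNA was also highest in cDC1s. Another Scd1 window, with more reads, had the opposite order. It held 189 and 142 reads in cDC1s, 289 and 353 in T-bet- cDC2s and 411 and 286 in T-bet+ cDC2s. No window was assigned to Fasn.

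At Soat1 all 4 windows were less open in cDC1s than in both cDC2 subsets. The printed window was at 0.356 and 0.914 CPM in cDC1s (3 and 7 reads), 6.41 and 10.4 CPM in T-bet- cDC2s and 5 and 5.54 CPM in T-bet+ cDC2s (3.74 ± 0.44 and 3.05 ± 0.46 against cDC1s, edgeR adjusted p of 1.8e-10 and 1.3e-07). Soat1 RNA did not follow this order, since cDC1s and T-bet- cDC2s overlapped.

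Promoter windows of Sqle, Idi1, Hmgcs1 and Fdft1 were more open in cDC2s than in cDC1s. The RNA of these genes did not pass between the same spleen subsets. Promoter windows with the most reads at Lss, Mvk, Dhcr7, Nsdhl, Pmvk, Sc5d and Lbr passed in neither comparison with cDC1s. Of the 106 promoter windows at member loci, 21 passed in either direction between T-bet+ cDC2s and cDC1s, against 23.0% of all windows of any class. Between T-bet- cDC2s and cDC1s 18 passed, against 17.9%. The share among promoter windows of all genes was not counted. The Sqle window printed above was at 59.5 and 52.8 CPM in cDC1s, 98.9 and 87.9 CPM in T-bet- cDC2s and 111 and 114 CPM in T-bet+ cDC2s (0.73 ± 0.14 and 1.0 ± 0.14 against cDC1s, edgeR adjusted p of 3.7e-05 and 2.6e-08). The Idi1 window with the most reads was at 75.7 and 63.7, 126 and 97.1, and 122 and 116 CPM in the same order (0.67 ± 0.14 and 0.77 ± 0.14, edgeR adjusted p of 0.00013 and 9.3e-06), and is as close to a second gene. For Hmgcs1 and Fdft1 the differences from cDC1s passed in T-bet+ cDC2s (0.58 ± 0.13 and 0.55 ± 0.14, edgeR adjusted p of 0.00022 and 0.0018) and stayed under the fold threshold in T-bet- cDC2s (0.45 ± 0.13 and 0.48 ± 0.14). The promoter window of Tm7sf2, whose RNA was higher in T-bet- cDC2s than in cDC1s, differed by 0.05 ± 0.21. That window is also as close to another gene. Members without a window were Acat2, Mvd, Fdps, Ebp, Stard4 and Fasn, so that their chromatin was not analysed here.

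Srebf2 had an intronic window (chr15:82152121-82152270) at 24.5 and 18.6 CPM in T-bet+ cDC2s, 11.3 and 12 CPM in T-bet- cDC2s and 8.08 and 9.66 CPM in cDC1s (0.88 ± 0.22 between the cDC2 subsets, edgeR adjusted p = 0.0031). It was highest where Srebf2 RNA was highest, although T-bet- cDC2s and cDC1s stood in the opposite order in the RNA. A Hmgcs1 exonic window (chr13:119694896-119695045) and a Scap intronic window (chr9:110356601-110356750) were lowest in T-bet- cDC2s, with differences of 1.1 ± 0.23 and 1.7 ± 0.46 between T-bet+ and T-bet- cDC2s (edgeR adjusted p of 0.00042 and 0.0072). Exact sterol elements were in 4 of the 198 windows, or 2.02% against 0.636% of all windows, at Srebf1, Hmgcs1, Abcg1 and Scd1, and no subset difference passed in any of these 4. NF-Y boxes were in 19.19% of the 198 windows against 17.4% of all windows, and E-boxes in 2.53% against 2.88%. The exact LXR element was in none against 0.00562%, which is too rare to show whether LXR sites are lacking.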

How the data were processed

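RNA was measured in 16 and open chromatin in 6 libraries. Per the labels and methods, RNA-seq reads were aligned with HISAT2 (version 2.1.0) and counted on GENCODE genes, and the deposited values are raw read counts per gene. ATAC-seq reads were aligned with Bowtie2 (2.2.5), peaks were called by the authors with MACS2 (2.1.1.20160309) on all replicates together, and the deposited window values are raw counts of reads in 150-base windows at peak summits, on mm10. The submitters' processing notes also name SAMtools (1.9) and R (3.4.0). The deposited peak score is 0 throughout, and the deposited −log10 p of the summits is at least 1.00007; neither was used. Whether counting used the strand is not given in the sources used here, so reads of a gene and of a partner on the other strand may be mixed.

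Counts were tested with edgeR 4.0.16 (R 4.3.3; TMM, filterByExpr, quasi-likelihood F test, Benjamini-Hochberg adjustment over all genes or windows tested). Subsets were compared in a fit per tissue (14377 genes in spleen, 15298 in MLN), and tissues and their interaction with subset in a fit of all 16 libraries (16795 genes). ATAC windows were tested in 1 fit of 166547 windows. The CPM printed are scaled over all 16 RNA libraries, or all 6 ATAC libraries, and so can differ slightly from the scaling of a fit. Windows took the closest GENCODE M21 gene (bedtools 2.31.1). DESeq2 1.42.0, other filters and scalings, a replicate block and leaving out each library were alternatives. No label ties replicate numbers to a shared mouse or day. Deviations from the group means of same-numbered spleen cDC1 and T-bet+ libraries correlated positively in all 3 pairs (0.43, 0.2 and 0.17), so for that comparison calls changed by the block are given beside the result. Intervals and SEs describe 2 or 3 libraries per group.

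The members and lists were chosen with earlier results of these data known. All 34 members are accounted for; values in every library are given for members called within a tissue and for the SREBP and LXR regulators, other pathway genes are named where called within a tissue, and windows are the called ones with the largest change (at most 10 per comparison) and the promoter window with the most reads. Library values of genes called only between tissues, of Soat1, Abcg1 and the markers, the gene Fads2 and the windows at chr4:53180610-53180759 and chr2:91196880-91197029 were added after their values were seen. The Scd1 window with more reads was also added after its values were seen.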

Additional observations from a re-analysis of the deposited data

How the results depend on the processing

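The counts of members called depended on the fit in the small comparisons. Between spleen T-bet+ and T-bet- cDC2s (2 members), 1 remained called with DESeq2 size factors, with at least 10 counts in every library, with the compared subsets alone, with the replicate block, and with all 16 libraries in 1 fit. Between MLN T-bet+ and T-bet- cDC2s (0 members), 2 were called by DESeq2 and 2 without a filter, and 1 with a block by the number in the library names or with all 16 libraries. Between MLN T-bet+ cDC2s and cDC1s (0), the counts were 4 by DESeq2, 7 without a filter, 7 with the name-number block and 1 without both MLN libraries of low Ccr7. Between MLN T-bet- cDC2s and cDC1s (2), they were 1 with at least 10 counts, 6 with the name-number block and 4 without both low libraries. Between tissues in cDC1s (11), they were 5 with library class as a term and 18 without both low libraries. In T-bet+ cDC2s (4), they were 9 by DESeq2, 12 without a filter, 7 with at least 10 counts and 0 with class. Leaving out both low libraries left a single MLN library there. In T-bet- cDC2s (4), they were 10 by DESeq2, 10 without a filter, 8 with the newer quasi-dispersion, 2 with class and 12 without both low libraries. For windows, the 13 between cDC2 subsets became 24 at an adjusted p under 0.05 with no fold threshold and 8 by DESeq2. Over all windows, the 10460 called became 18870 and 4844. The 47 between T-bet+ cDC2s and cDC1s became 30 by DESeq2, where the count over all windows went from 38316 to 23964. In whole peaks, a different unit, 30 were called, against 26671 of all 73293 peaks. The 39 between T-bet- cDC2s and cDC1s became 22 by DESeq2, and the count over all windows went from 29773 to 17143. With 1 mismatch, 15.15% of windows held the sterol element, 97.47% the NF-Y box and 44.95% the E-box, and of the promoter entries 36.11% held the first, all 36 (100%) the second and 75% the third. For the RNA alternatives, here and with libraries left out, calls over all genes were not counted. Their counts thus describe the fits and are no result about the members. The cause of these changes was not tested.

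Leaving out 1 library at a time gave 1 to 2, 3 to 8 and 3 to 9 members in the 3 spleen comparisons, in the order T-bet+ against T-bet-, T-bet+ against cDC1 and T-bet- against cDC1. It gave 0 to 0, 0 to 2 and 0 to 2 in MLN, 5 to 19, 0 to 8 and 0 to 2 between tissues (cDC1, T-bet+, T-bet-), and 6 to 16, 24 to 49 and 20 to 40 windows. The lowest spleen counts against cDC1s were 3 without T-bet+ replicate 1 and 3 without cDC1 replicate 2, and the count for T-bet+ cDC2s was 8 without T-bet- replicate 3. The MLN count of 2 for T-bet- cDC2s against cDC1s was 0 without T-bet- replicate 1 and 1 without replicate 2. The lowest window counts were 6 without T-bet- replicate 1, 24 without cDC1 replicate 2 and 20 without cDC1 replicate 2. The alternative values of single genes cover the members, and the 20 further pathway genes in comparisons where these were called. Of these 5586 values, 5284 kept their side of the threshold, 150 gained it, 152 lost it and 0 changed direction while called.

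For the other pairings, deviations of same-numbered libraries correlated at -0.74 to -0.5 (spleen cDC1 and T-bet-), -0.33 to -0.07 (spleen cDC2 subsets), 0.66 and 0.62 (MLN cDC1 and T-bet+), 0.21 and 0.01 (MLN cDC1 and T-bet-), -0.14 (MLN cDC2 subsets) and -0.04 to 0.02 (ATAC-seq). The positive MLN values rest on 2 pairs, and replicate 1 of MLN cDC1s and of T-bet+ cDC2s are the libraries of low Ccr7. The replicate block gave 1, 4 and 7 members in spleen, 0, 0 and 2 in MLN, and 11, 45 and 36 windows. Over all windows the block called 9754, 37314 and 28852. With the MLN T-bet- numbers crossed, chosen after the data were seen, 0, 0 and 2 members were called. With 2 libraries in the MLN cDC2 groups and in each ATAC-seq group, a difference that misses the threshold is not shown to be absent.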
